A study of Mus musculus with 4 samples.

Results

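The 4 SLAM family receptor genes Slamf1, Cd48, Cd84 and Ly9 were followed in single hematopoietic stem cells (HSCs) of mouse bone marrow. They were taken by name from the 31053 genes of the count tables, and all 4 passed the filter on low counts that left 12656 genes for testing between gates. The 4 libraries came from mouse 1 and mouse 2, each of which gave 1 library of long-term stem cells (LT-HSC) and 1 of short-term stem cells (ST-HSC). Both animals were male, 14 weeks old and of the cross Tie2-bG-Micm x RosaYFP, in which a Tie2-driven inducible Cre acts on a YFP reporter. Both gates took cells without lineage markers and without CD48 on the surface that carried Kit and Sca-1, so the only marker that parted them was CD150, present on LT-HSC and absent from ST-HSC. No treatment of the animals is named in the labels.

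SLAM receptors are immunoglobulin-like membrane proteins of blood cells. Most of them bind a second copy of themselves on a neighbouring cell, while CD48, held in the membrane by a lipid anchor, is the ligand of CD244 and, in mice, of CD2. Family members with a signalling tail, which CD48 lacks, recruit the small adaptors SAP (Sh2d1a) and EAT-2 (Sh2d1b1) or the phosphatases Ptpn6 and Inpp5d. The adaptors link the receptors to kinases such as Fyn. In bone marrow, CD150 (the product of Slamf1) and CD48 are the standard surface pair for stem cell sorting: the most durable stem cells carry CD150 and lack CD48, and CD48 appears as cells commit to progenitor fates.

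The genes lie side by side on chromosome 1. In the GRCm38 build (mm10) with GENCODE vM21 gene models, Ly9 runs from 171588624 to 171607410 on the minus strand. Cd48 follows from 171682009 to 171705258, Slamf1 from 171767127 to 171801184 and Cd84 from 171839697 to 171890718, all on the plus strand. With Cd244, Slamf7 and Slamf6 they form a cluster of 7 genes over 394 kb. The whole 18.8 kb gene model of Ly9 lies inside that of Cd244 (171559193 to 171609746) on the opposite strand. The sources used here do not give strand use in the counting, so the division of reads between Ly9 and Cd244 is uncertain.

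Because these neighbours moved in opposite directions between the gates, promoter sequence is shown for the 3 members that have an entry among the RefSeq promoters. Each window holds the 150 bases before the transcription start of that entry (GRCm38.p6, plus strand, 5′ to 3′). For Slamf1 and Cd48 that start differs by some bases from the GENCODE gene start given above. The short motifs of 3 families of blood transcription factors were searched on both strands, and matches stand in capitals. The letters AGGAAG were taken for the ETS family. The letters GATAAG were taken for the GATA family, and for the RUNX family they were TGTGGT. None of the 3 overlaps another in the windows shown.
Slamf1, chr1:171766982-171767131: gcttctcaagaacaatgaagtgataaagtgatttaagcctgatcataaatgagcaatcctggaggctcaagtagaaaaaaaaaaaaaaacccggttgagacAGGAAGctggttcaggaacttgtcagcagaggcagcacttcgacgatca
Cd48, chr1:171681842-171681991: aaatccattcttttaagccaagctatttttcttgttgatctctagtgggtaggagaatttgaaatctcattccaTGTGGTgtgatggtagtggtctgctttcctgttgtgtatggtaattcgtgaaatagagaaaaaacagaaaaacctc
Cd84, chr1:171839547-171839696: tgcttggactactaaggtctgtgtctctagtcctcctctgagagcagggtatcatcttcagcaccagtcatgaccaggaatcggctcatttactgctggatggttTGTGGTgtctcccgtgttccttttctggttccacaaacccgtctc
The Slamf1 window held the ETS letters once, and the Cd48 and Cd84 windows each held the RUNX letters once. Among 32851 promoters of the same length, 19.7% held the ETS letters, 8.40% the RUNX letters and 3.75% the GATA letters. These are matches of letters only, and no binding was measured.

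Cells were kept with at least 1000 genes, at least 2000 unique molecular identifiers (UMIs, 1 per captured RNA molecule) and at most 10% mitochondrial UMIs. This left 1217 cells in mouse 2 LT-HSC, 2633 in mouse 1 ST-HSC and 1707 in mouse 2 ST-HSC, at medians of 10367, 9881 and 7504 UMIs. Mouse 1 LT-HSC stood apart. Only 22 of its 39553 barcodes were kept, with 115305 UMIs in all, against 13249904 to 27870823 UMIs in the other libraries. A gene needed 26.0 counts per 1e6 UMIs (CPM) to reach 3 counts there, against 0.108 to 0.226 CPM elsewhere. Among kept cells, 1 barcode was shared between mouse 2 LT-HSC and mouse 2 ST-HSC and 1 between the ST-HSC libraries. Cells with 3 or more markers of another blood cell type numbered 4 in mouse 2 LT-HSC, 17 in mouse 1 ST-HSC, 18 in mouse 2 ST-HSC and 0 in mouse 1 LT-HSC.

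Slamf1 RNA was higher in the gate sorted for its protein. Kept cells held 4 UMIs (34.7 CPM) in mouse 1 LT-HSC and 290 UMIs (21.9 CPM) in mouse 2 LT-HSC. The mouse 1 ST-HSC held 23 UMIs (0.825 CPM) and those of mouse 2 held 19 (1.40 CPM). Both LT-HSC libraries lay above both ST-HSC libraries, at 28.3 ± 9.05 CPM against 1.11 ± 0.407 (SD, n = 2 libraries each). The log2 fold change, LT-HSC minus ST-HSC, was 4.43 (SE 0.33, edgeR's quasi-likelihood test, Benjamini-Hochberg adjusted p = 1.78e-32). Over all tested genes 3.6% passed in this direction and 3.13% in the other, 6.72% in all.

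Cd48 RNA went the other way, although the sort removed cells with CD48 protein from both gates. Mouse 1 LT-HSC held 0 UMIs, below what its depth can show, and mouse 2 LT-HSC held 29 (2.19 CPM). The mouse 1 ST-HSC held 361 UMIs (12.95 CPM) and those of mouse 2 held 244 (18.0 CPM). Both ST-HSC libraries lay above mouse 2 LT-HSC, while mouse 1 LT-HSC, with a 95% Poisson upper limit of 32.0 CPM, could not be placed. The log2 fold change was -2.82 (SE 0.34, edgeR adjusted p = 2.35e-13). Over all barcodes of mouse 1 LT-HSC, nearly all of them outside the cell filter, with a median of 285 UMIs, Cd48 reached 11 UMIs (0.810 CPM), still below both ST-HSC libraries.

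Ly9, the gene of CD229, a receptor that binds itself and is best known from lymphocytes, was also higher in ST-HSC. It was at 0 UMIs in mouse 1 LT-HSC, 77 (5.81 CPM) in mouse 2 LT-HSC, 402 (14.4 CPM) in mouse 1 ST-HSC and 233 (17.2 CPM) in mouse 2 ST-HSC. The 2 ST-HSC libraries were close together and both above mouse 2 LT-HSC, with a log2 fold change of -1.46 (SE 0.28, edgeR adjusted p = 1.86e-05). Over all barcodes of mouse 1 LT-HSC it had 49 UMIs (3.61 CPM).

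Cd84, another receptor that binds itself, was the member that did not pass. Its level was 78.1 CPM (9 UMIs) in mouse 1 LT-HSC, 70.8 CPM (938 UMIs) in mouse 2 LT-HSC, 61.9 CPM (1724 UMIs) in mouse 1 ST-HSC and 64.9 CPM (880 UMIs) in mouse 2 ST-HSC. Both LT-HSC values were above both ST-HSC values, but the counting interval of the first library spans all the others. The log2 fold change was 0.17 (SE 0.19, edgeR adjusted p = 0.947).

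The gate calls of Slamf1, Cd48 and Ly9 rest on mouse 2 LT-HSC. Without that library none of the 3 passed, with adjusted p of 0.408, 0.657 and 0.598, while without any other single library all 3 passed. DESeq2 on the same sums called Slamf1 (adjusted p = 3.01e-05) but neither Cd48 nor Ly9 (adjusted p = 1.00 for both). With all barcodes of mouse 1 LT-HSC, DESeq2 called both (adjusted p = 2.56e-14 and 2.87e-06). That fit was chosen after seeing the data, and nearly all the barcodes it adds lie outside the cell filter.

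**Figure D1:**
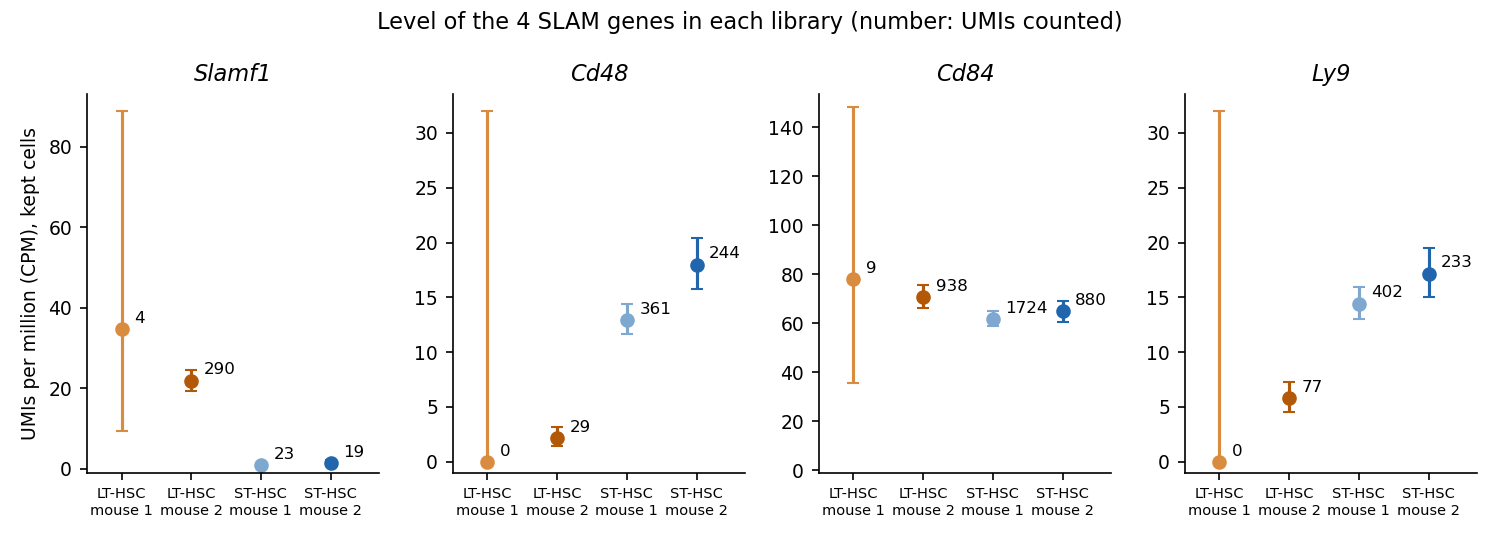
Level of each member in the 4 libraries, in CPM over kept cells. Points are library values, bars are 95% Poisson intervals that cover counting error only, and numbers are UMIs counted. Slamf1 was highest in the LT-HSC libraries, and the 4 Cd84 values lay between 61.9 and 78.1 CPM. Cd48 and Ly9 were higher in both ST-HSC libraries than in mouse 2 LT-HSC. Mouse 1 LT-HSC, with 0 UMIs of either gene, could not be placed.

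Of the family members outside the 4, Cd244, the receptor of CD48, followed its ligand. It had 0 UMIs in mouse 1 LT-HSC and 29 (2.19 CPM) in mouse 2 LT-HSC, against 350 (12.6 CPM) and 149 (10.98 CPM) in mouse 1 and mouse 2 ST-HSC. Its log2 fold change was -2.44 (SE 0.36, edgeR adjusted p = 3.88e-09), with the doubt about reads shared with Ly9 named above. DESeq2 did not call it (adjusted p = 1.00), and it did not pass without mouse 2 LT-HSC (adjusted p = 0.674). Slamf8 was at 0, 40, 68 and 26 UMIs in mouse 1 and mouse 2 LT-HSC, then mouse 1 and mouse 2 ST-HSC, and did not pass (0.42, SE 0.44, edgeR adjusted p = 0.919). Slamf6 reached at most 9 UMIs in a library, Slamf9 4, Cd2 3 and Slamf7 1.

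Among 15 genes that act below the receptors, 12 could be tested and 0 passed edgeR's test at an adjusted p of 0.05, where 6.72% of all tested genes passed (2 at an unadjusted p under 0.05, and DESeq2 called 0), with a median log2 fold change of -0.10 against -0.02 over all genes tested. The adaptor Sh2d1a had 1 UMI in all libraries together and Sh2d1b2 had none, while Sh2d1b1 had 0, 1, 7 and 5. The phosphatase Ptpn6 lay at 104, 106, 115 and 118 CPM in mouse 1 and mouse 2 LT-HSC, then mouse 1 and mouse 2 ST-HSC, where the first value rests on 12 UMIs (95% Poisson interval 53.8 to 182 CPM). The kinase Fyn had a log2 fold change of 0.37 (SE 0.21) and Lck of -0.82 (SE 0.31, edgeR adjusted p = 0.0992). With the mouse as a block Lck passed (-0.99, SE 0.26, edgeR adjusted p = 0.00426), as it did with all barcodes of mouse 1 LT-HSC (-1.05, adjusted p = 0.0136) and without mouse 1 ST-HSC (adjusted p = 0.0137). The lipid phosphatase Inpp5d differed by -0.48 (SE 0.20, edgeR adjusted p = 0.169) and passed with all barcodes of mouse 1 LT-HSC (-0.57, adjusted p = 0.0375).

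The other sort genes give a scale for these differences. Kit and the Sca-1 gene Ly6a, positive in both gates, had log2 fold changes of 0.12 (SE 0.20) and -0.14 (SE 0.20) and did not pass. Both changed sign under another setting. Flt3 and Cd34, which were not used in the sort and rise as stem cells mature, were higher in ST-HSC by log2 fold changes of -3.33 (SE 0.23) and -1.75 (SE 0.21), both past the threshold of edgeR's test, though not without mouse 2 LT-HSC (adjusted p = 0.200 and 0.149).

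The differences were then placed along the chromosome. Within 350 kb of the Slamf1 start, 13 genes were tested. Of the 5 tested cluster genes, 4 passed, and of the 8 other tested genes, 1 passed (F11r, an adhesion molecule, 0.67, SE 0.20, edgeR adjusted p = 0.0188). Among all tested genes 6.72% passed. Cluster and other genes were not tested against each other. The 4 that passed include Slamf1, whose protein set the gates, and Ly9 and Cd244, which may share reads. The members were also chosen with earlier results known, so this count is description only. The noncoding gene Gm26641, beside F11r, differed by 1.91 (SE 0.68, edgeR adjusted p = 0.0699). Slamf1 and its neighbour Cd48, which starts at -85.1 kb from the Slamf1 start, had the largest differences of the window and opposite signs, and Cd84, which starts 72.6 kb on the other side of Slamf1, did not pass.

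**Figure D2:**
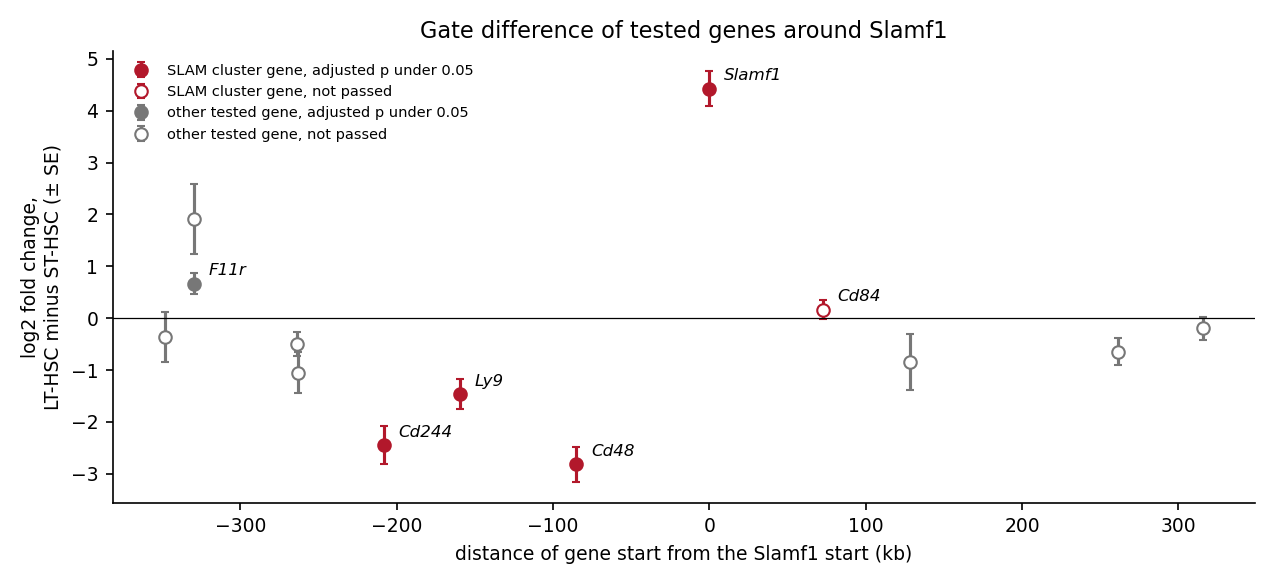
Log2 fold change between gates (LT-HSC minus ST-HSC, bars are SE) of the 13 tested genes within 350 kb of the Slamf1 start, against the distance of each gene's start from that of Slamf1. Filled points passed an adjusted p of 0.05. The SLAM cluster genes Cd244, Ly9 and Cd48 lie below 0, Slamf1 lies at 4.43 and Cd84 near 0.

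At the level of single cells, a Slamf1 UMI was found in a minority of cells even in the CD150 gate. It was seen in 3 of 22 cells (13.6%, exact Clopper-Pearson 95% interval 2.91 to 34.9) and 221 of 1217 cells (18.2%, 16.0 to 20.4) of mouse 1 and mouse 2 LT-HSC. In cells sorted as lacking CD150 it was seen in 22 of 2633 (0.836%, 0.524 to 1.26) and 19 of 1707 (1.11%, 0.671 to 1.73). At this depth a cell without a UMI is not a cell without the RNA. After thinning every cell to 2000 UMIs, the shares were 3.37% in mouse 2 LT-HSC and 0.114% and 0.351% in mouse 1 and mouse 2 ST-HSC. In mouse 1 LT-HSC the thinned share was 13.6% (3 of 22 cells, 2.91 to 34.9).

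The even spread of Slamf1 over LT-HSC was checked against the share that would carry a UMI if the library's Slamf1 UMIs fell on cells in proportion to their depth. That share was 20.9% in mouse 2 LT-HSC, slightly above the observed 18.2% and its interval. Of the 221 cells there, 164 had 1 UMI, 47 had 2, and no cell had more than 4. In mouse 1 and mouse 2 ST-HSC the even share was 0.869% and 1.11%, both inside the observed intervals.

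Cd48 was spread less evenly. Cells with a Cd48 UMI made up 19 of 1217 (1.56%, 0.943 to 2.43) in mouse 2 LT-HSC, 259 of 2633 (9.84%, 8.73 to 11.04) in mouse 1 ST-HSC and 148 of 1707 (8.67%, 7.38 to 10.1) in mouse 2 ST-HSC. An even spread would give 2.35%, 12.7% and 13.2%. The shortfall came with a few cells of many UMIs: the highest cell held 10, 22 and 17 UMIs in these libraries. In mouse 1 LT-HSC, 0 of 22 cells carried one, which allows a share of up to 13.6% by the limit of 3 counts and 15.4% by the exact Clopper-Pearson interval.

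Part of the Cd48 UMIs lay in cells with myeloid genes. Cells with 2 or more UMIs of at least 3 of the monocyte and granulocyte progenitor genes Mpo, Ctsg, Ly6c2, F13a1, Ccr2, Lgals3, Clec12a and Irf8 (a list chosen after the values were seen) numbered 1, 7 and 12 in mouse 2 LT-HSC and mouse 1 and mouse 2 ST-HSC. They held 10 of 29, 39 of 361 and 80 of 244 Cd48 UMIs, which is 34.5%, 10.8% and 32.8%. Of these cells 1, 6 and 10 carried Cd48. The listed genes Mpo, Ctsg, Ly6c2 and Lgals3 were also among the genes that rose in cells with Cd48. Cells picked by these genes were therefore likely to carry Cd48, so an overlap was partly built in. The shares are description only and do not test whether Cd48 goes with myeloid genes. The cells with markers of another type, which may be some of the same cells, held 0, 37 and 39 Cd48 UMIs. The remaining cells still carried it in 1.48%, 9.63% and 8.14%, and with both these cells and cells of another type left out, the gate difference of Cd48 was -3.05 (SE 0.38, edgeR adjusted p = 2.67e-13).

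Ly9 and Cd84 were spread as evenly as their depth allows. Ly9 was seen in 6.08% of mouse 2 LT-HSC, 13.6% of mouse 1 ST-HSC and 12.5% of mouse 2 ST-HSC, where an even spread gives 6.10%, 14.0% and 12.7%. Cd84 was seen in 50.6%, 45.4% and 38.7% of the same libraries, where an even spread gives 51.9%, 46.7% and 39.4%. All 6 even shares lay inside the observed intervals. No cell held more than 3 UMIs of Ly9 or more than 7 of Cd84. After thinning to 2000 UMIs Cd84 was seen in 13.8%, 11.2% and 12.1%, so the order across libraries at full depth changed with depth.

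**Figure D3:**
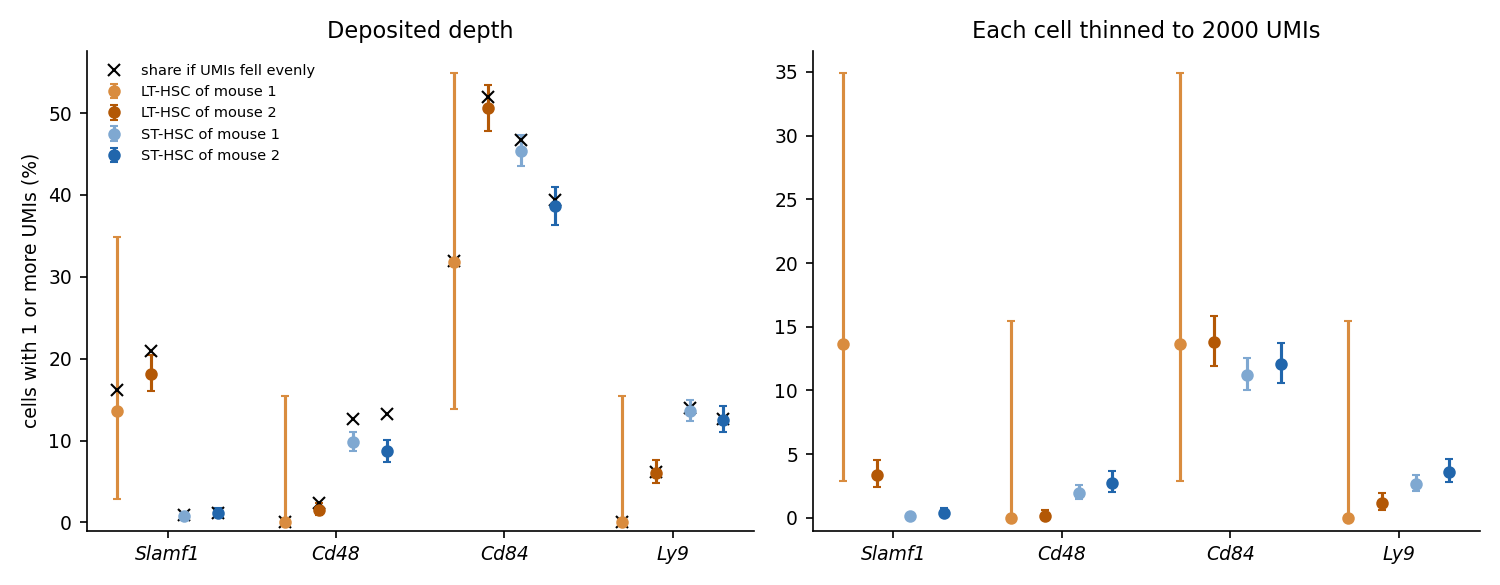
Share of kept cells with 1 or more UMIs of each member, at deposited depth (left) and with every cell thinned to 2000 UMIs (right). Points are libraries, bars are exact 95% Clopper-Pearson intervals, and crosses mark the share expected if a library's UMIs of the gene were spread over cells in proportion to depth. The crosses for Cd48 in ST-HSC, at 12.7% and 13.2%, lie above the observed 9.84% and 8.67%.

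How far RNA follows the sort was expressed as the area under the receiver operating characteristic curve (AUC), the chance that a random LT-HSC has a higher count than a random ST-HSC of the same mouse, with ties counted equally and 0.5 for no separation. With cells thinned to 2000 UMIs, Slamf1 reached 0.568 in mouse 1 (22 LT-HSC) and 0.515 in mouse 2. Among 12656 genes it ranked 249th and 418th from the LT-HSC side. The mouse 1 value and rank rest on 3 LT-HSC with a Slamf1 UMI. Cd48 stood at 0.490 and 0.487, Ly9 at 0.487 and 0.488, and Cd84 at 0.514 and 0.509. Cd34 reached 0.299 and 0.343 and Flt3 0.389 and 0.377, farther from 0.5 than any of the 4 members in either mouse. A gene without a UMI in most cells of both gates keeps an AUC near 0.5 whatever its fold change. At this depth Slamf1 was seen in 3.37% of mouse 2 LT-HSC, so these values and ranks also depend on abundance. On summed counts the log2 fold change of Slamf1 (4.43) was larger in size than those of Flt3 (-3.33) and Cd34 (-1.75). In mouse 2 the gene farthest on the LT-HSC side was Apoe (0.743), a lipid carrier gene, and the farthest on the ST-HSC side was H2afy (0.249), which encodes the histone variant macroH2A1.

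Scores that subtracted other SLAM genes from Slamf1 gave somewhat larger values. The genes subtracted were higher in ST-HSC in these same libraries, so a rise was built in, and the values are description only. Cd244 is outside the members followed here, and Cd84, which did not pass, was left out. The Slamf1 count minus the Cd48 count gave 0.576 and 0.528 in mice 1 and 2, and Slamf1 minus Cd48, Ly9 and Cd244 gave 0.598 and 0.547. At deposited depth the last score gave 0.691 and 0.646, with the depth gap between libraries included.

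In mouse 2, the RNAs that were seen differed in frequency between the gates. At deposited depth, 219 LT-HSC (18.0%) and 16 ST-HSC (0.937%) of mouse 2 had a Slamf1 UMI and no Cd48 UMI, so 93.2% of such cells came from the LT-HSC library. That share depends on how many cells each library holds. A Cd48 UMI without Slamf1 was seen in 17 LT-HSC and 145 ST-HSC. Both RNAs were seen together in 2 LT-HSC and 3 ST-HSC. Neither was seen in 979 LT-HSC (80.4%) and 1543 ST-HSC (90.4%), which the pair therefore did not place. In mouse 1, 3 of 22 LT-HSC and 21 of 2633 ST-HSC had Slamf1 without Cd48, and 0 and 258 had Cd48 without Slamf1. With only 22 LT-HSC kept there, 12.5% of the cells with Slamf1 and no Cd48 came from the LT-HSC library.

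Pairs of members were found in the same cell about as often as independent detection within depth deciles of a library would give. Over the 3 libraries with 50 or more kept cells at deposited depth, Slamf1 and Cd48 met in 6 cells where 9.25 were expected (ratio 0.648, 95% counting interval 0.238 to 1.41). Slamf1 and Cd84 met in 149 cells against 135 expected, and Slamf1 and Ly9 in 16 against 22.0. Cd48 and Cd84 met in 206 cells against 191, Cd48 and Ly9 in 73 against 65.9, and Cd84 and Ly9 in 295 against 290. The interval of the ratio included 1 for each of these 6 pairs.

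At deposited depth the pair of ligand and receptor was the exception among the pairs that involved Cd244. Cd48 and Cd244 met in 74 cells where 49.9 were expected (ratio 1.48, 1.16 to 1.86), with ratios of 3.29, 1.53 and 1.31 in mouse 2 LT-HSC and mouse 1 and mouse 2 ST-HSC. The intervals of the first and last of these included 1. After thinning, so did the interval over the 3 libraries, with 14 cells against 8.91 at 4000 UMIs (0.859 to 2.64) and 3 against 2.33 at 2000 UMIs (0.265 to 3.76). Ly9 and Cd244, the pair whose gene models overlap, met in 79 cells against 66.1 (ratio 1.20, 0.947 to 1.49).

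The genes that went with each member within a gate were sought by summing counts, in each of the 3 larger libraries, over cells with a UMI of the member and over as many depth-matched cells without one, with library as a block. For Cd84 in mouse 2 LT-HSC, all 601 cells without a UMI were taken against 616 with one, so that this pair was not matched on depth, with medians of 9988 and 10641.5 UMIs. The 3 libraries were treated as replicates, although both mouse 2 libraries came from the same animal and a single library was of LT-HSC. The Slamf1 comparison rested on 221, 22 and 19 cells with a UMI in mouse 2 LT-HSC and mouse 1 and mouse 2 ST-HSC, the Cd48 comparison on 19, 259 and 148, the Cd84 comparison on 616, 1196 and 660, and the Ly9 comparison on 74, 359 and 214.

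In cells with Slamf1, 5 of 4099 tested genes rose (0.122%) and 1 fell (0.0244%), 0.146% in all. Iigp1, an interferon-induced GTPase, was at 121 against 69.3 CPM in mouse 2 LT-HSC, 51.4 against 22.0 in mouse 1 ST-HSC and 120 against 12.0 in mouse 2 ST-HSC, higher with Slamf1 in 3 of 3 libraries (0.98, SE 0.18, edgeR adjusted p = 0.00045). In the ST-HSC libraries it rested on 14 and 20 UMIs in these cells, with up to 4 and 12 in 1 cell. Mllt3, a regulator of stem cell maintenance, was at 298 against 205 CPM in mouse 2 LT-HSC, 80.8 against 47.7 in mouse 1 ST-HSC and 60.2 against 54.1 in mouse 2 ST-HSC (0.56, SE 0.12, edgeR adjusted p = 0.00968). For Mllt3 the mouse 1 and mouse 2 ST-HSC values rest on 22 against 13 and 10 against 9 UMIs. Ifitm1, an interferon-inducible membrane protein gene, rose by 0.26 (SE 0.06, edgeR adjusted p = 0.032). Against all cells without a Slamf1 UMI, not matched on depth, none of these 3 passed, at 0.42 for Iigp1 (adjusted p = 0.305), 0.14 for Mllt3 and 0.015 for Ifitm1 (adjusted p = 1.00 for both).

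Apoe was higher only in 2 of the 3 libraries, at 841 against 543 CPM in mouse 2 LT-HSC, 103 against 103 in mouse 1 ST-HSC and 120 against 114 in mouse 2 ST-HSC (0.58, SE 0.11, edgeR adjusted p = 0.000832). For Apoe the mouse 2 ST-HSC values rest on 20 against 19 UMIs. Lyz2, a myeloid lysozyme gene, fell by 0.70 on the log2 scale (edgeR adjusted p = 6.29e-06). The Lyz2 call was lost when the cells with myeloid progenitor genes were left out (-0.18, edgeR adjusted p = 0.999). Of 9 tested stem cell genes 2 rose (Mllt3 and Apoe), and of 8 tested progenitor genes 0 passed. DESeq2 called 0 genes in this comparison (16 at an unadjusted p under 0.05), the fit without the library block called 0 (21 unadjusted), and without mouse 1 ST-HSC edgeR called 0 (182 unadjusted). Without mouse 2 LT-HSC it called 1, and without mouse 2 ST-HSC it called 14 that rose and 4 that fell.

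Cells with Cd48 differed more: 72 of 9513 tested genes rose (0.757%) and 9 fell (0.0946%), 0.851% in all. The genes of smallest p were myeloid. Mpo, the neutrophil granule peroxidase, was at 3.77 against 0 CPM in mouse 2 LT-HSC, 263 against 5.86 in mouse 1 ST-HSC and 426 against 7.73 in mouse 2 ST-HSC (5.61, SE 0.13, edgeR adjusted p = 9.08e-15). A single cell held 449 of the 862 Mpo UMIs of the second of these sums and another 410 of the 625 of the third. The granule protease Ctsg (7.98), the monocyte surface gene Ly6c2 (7.39), the galectin Lgals3 (4.72) and the signalling adaptor Tyrobp (2.94) followed, and DESeq2 also called all 5. Ctsg was found in 1, 8 and 5 of the cells with Cd48 in the 3 libraries, and Tyrobp in 2, 83 and 47.

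Of 16 tested progenitor genes 5 rose in cells with Cd48 and 0 fell. Besides Mpo they were Cd52, a small surface glycoprotein of lymphoid and myeloid cells, Plac8, the myeloid transcription factor gene Cebpa and the immunoglobulin heavy chain gene Ighm. Cd52 was at 226 against 30.4 CPM in mouse 2 LT-HSC, 192 against 105 in mouse 1 ST-HSC and 320 against 144 in mouse 2 ST-HSC (1.17, SE 0.15, edgeR adjusted p = 0.000296). Plac8 was at 245 against 45.5, 774 against 404 and 814 against 436 CPM in the same order (1.15, SE 0.15, edgeR adjusted p = 0.000345). DESeq2 called Mpo and Cd52 of these 5, but not Plac8 (adjusted p = 0.355), Ighm (0.152) or Cebpa (1.00). Of 16 tested stem cell genes 1 fell, Pdzk1ip1, at 196 against 239, 61.3 against 88.8 and 68.8 against 122 CPM (-0.57, SE 0.10, edgeR adjusted p = 0.00523). Bex4, a small BEX family gene, fell by 1.29 on the log2 scale (edgeR adjusted p = 0.0081), and the noncoding transcripts Malat1 and AY036118 by 0.18 and 0.73. DESeq2 called 0 of the genes that fell.

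With only the cells of other types left out, the Mpo difference was 1.77 (SE 0.29, edgeR adjusted p = 0.00103), and with cells thinned to 4000 UMIs it was 3.80. With the cells of other types and of myeloid progenitor genes left out, 18 genes rose and 9 fell in cells with Cd48. Mpo, Ctsg, Ly6c2 and Lgals3, all in the list that removed those cells, were then no longer tested. Tyrobp (1.31), Cd52 (0.57), Plac8 (0.46) and Ighm (0.75) still rose, and Pdzk1ip1 (-0.53) and Bex4 (-0.95) still fell, while Cebpa (0.49, adjusted p = 0.868) no longer passed edgeR's test. Without the library block 20 genes rose and 0 fell. With all kept cells, 187 rose and 58 fell without mouse 2 LT-HSC, 63 and 4 without mouse 1 ST-HSC, and 27 and 1 without mouse 2 ST-HSC.

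**Figure D4:**
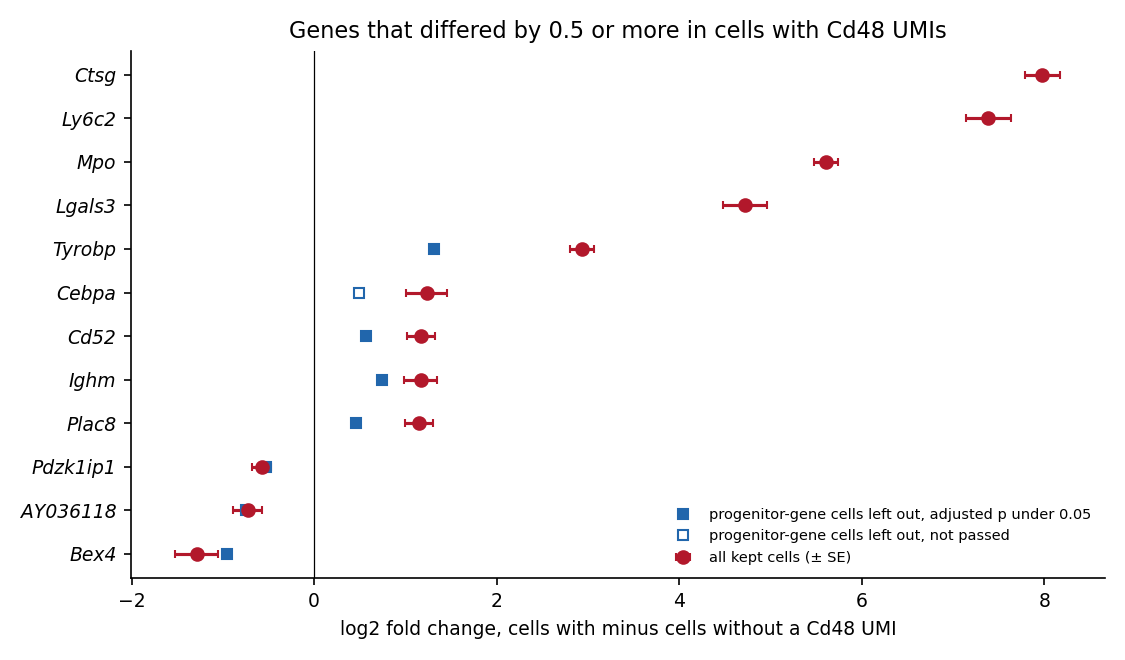
Log2 fold change of the named genes that differed by at least 0.5 between cells with and depth-matched cells without a Cd48 UMI, over 3 libraries. Circles are the fit over all kept cells with SE bars, and squares are the fit with cells of other types and cells with monocyte and granulocyte progenitor genes left out (filled where adjusted p was under 0.05). The squares of Tyrobp, Cd52, Ighm and Plac8 stay above 0 but lie nearer to it than the circles, and Mpo, Ctsg, Ly6c2 and Lgals3 have no square because they were not tested there.

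In cells with Cd84, 8 of 11735 tested genes rose (0.0682%) and 10 fell (0.0852%), 0.153% in all. The differences were small or sat in few cells. Retnlg, a neutrophil gene, was at 41.5 against 0.477, 6.66 against 1.18 and 82.5 against 28.5 CPM, with 288 of 289 UMIs and 85 of 86 UMIs of the first 2 sums in 1 cell each. Malat1 differed by 0.06 (SE 0.01) and Ccl3, a chemokine gene, by 0.40 (SE 0.08, edgeR adjusted p = 0.0217). The S phase gene Pclaf fell by 0.45 on the log2 scale (edgeR adjusted p = 0.00764) and was lower in 3 of 3 libraries, at 41.6 against 48.7, 35.2 against 56.2 and 31.7 against 37.1 CPM. The histone genes H1fx (-0.23) and H2afz (-0.11) also fell, as did the globin gene Hbb-bs, whose counts can be shared with its near copies (-2.88, and -0.25 with no call where cells of another type were left out). Iigp1 rose by 0.25 (SE 0.05, edgeR adjusted p = 0.0395). Mpo (2.26) was higher in 1 of the 3 libraries. Ccl3 did not pass with cells of another type left out (edgeR adjusted p = 0.0698), nor with the myeloid progenitor gene cells also left out (0.141). In the latter fit Iigp1 (edgeR adjusted p = 0.0692), H1fx (0.0666) and H2afz (0.474) did not pass either, while Malat1 and Pclaf did. Without mouse 2 ST-HSC, 20 genes rose and 12 fell. DESeq2 called 1 gene, Malat1, and the fit without the block called 0 (53 unadjusted).

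In cells with Ly9, 15 of 9896 tested genes rose (0.152%) and 4 fell (0.0404%), 0.192% in all. Of 16 tested progenitor genes 5 rose (Flt3, Cd52, Mpo, Ighm and Wfdc17), and of 19 tested stem cell genes 1 fell (Apoe). Cd74, the invariant chain of antigen presentation, was at 172 against 66.6 CPM in mouse 2 LT-HSC, 167.5 against 127 in mouse 1 ST-HSC and 158 against 105 in mouse 2 ST-HSC (0.58, SE 0.09, edgeR adjusted p = 0.000103). Flt3, the receptor of early lymphoid and myeloid progenitors, was at 23.3 against 13.7, 147 against 115 and 171 against 139 CPM (0.34, SE 0.08, edgeR adjusted p = 0.038). Wfdc17 rose by 0.55 (SE 0.09), Tmsb10, an actin-binding peptide gene, by 0.21 (SE 0.03), and the galectin Lgals1 by 0.58 (SE 0.10). Lyz2 and the transcript Gm42418 rose by 0.59 and 0.42. A single cell held 382 of the 1582 Lyz2 UMIs in mouse 1 ST-HSC and another 357 of 1229 in mouse 2 ST-HSC. With the cells of other types and of myeloid progenitor genes left out, Lyz2 differed by 0.089 (edgeR adjusted p = 0.991).

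Against all cells without a Ly9 UMI, Cd74 (0.022), Flt3 (0.17) and Wfdc17 (0.061) did not pass (adjusted p = 0.964, 0.199 and 0.849). Ighm was at 0 UMIs in both sums of mouse 2 LT-HSC, and at 50.2 against 24.8 and 38.2 against 18.1 CPM in mouse 1 and mouse 2 ST-HSC (1.04, SE 0.15, edgeR adjusted p = 8.47e-05). Apoe fell, at 531 against 760, 105 against 123 and 83.3 against 99.8 CPM (-0.37, SE 0.07, edgeR adjusted p = 0.00251), and Pf4, a platelet chemokine gene, differed by -0.50 (SE 0.10, edgeR adjusted p = 0.0115). The histone gene Hist1h2ae, which has near copies, differed by -0.42 (edgeR adjusted p = 0.00743). Cd52 (0.43) was higher in 2 of 3 libraries. Mpo (1.99) rested on 1 cell with 160 of 185 UMIs in mouse 1 ST-HSC. DESeq2 called 0 genes here (42 at an unadjusted p under 0.05), and the fit without the block called 0 (85 unadjusted). Without mouse 2 LT-HSC, 37 rose and 10 fell, without mouse 1 ST-HSC, 13 and 8, and without mouse 2 ST-HSC, 14 and 10. With the cells of other types and of myeloid progenitor genes left out, 4 genes rose and 1 fell, Cd74 (0.58), Gm42418 (0.40), Ighm (0.92), Wfdc17 (0.55) and Apoe (-0.37).

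The summed levels of whole lists were compared with no test. The 16 progenitor genes together were 2.55, 1.55 and 1.56 times as high in cells with Cd48 as in their matched cells in mouse 2 LT-HSC and mouse 1 and mouse 2 ST-HSC, and 1.20, 1.16 and 1.11 times as high in cells with Ly9. With Cd48, the first ratio rests on 247 against 96 UMIs, and 1 cell held 48 of the 60 Cd52 UMIs. In mouse 1 and mouse 2 ST-HSC single cells held 449 and 410 Mpo UMIs and 245 and 239 Plac8 UMIs, where the list summed to 8376 and 4252. Ratios without the cells of myeloid progenitor genes were not computed. In cells with Slamf1 the progenitor genes were 0.789, 0.820 and 1.20 times as high, so the libraries did not share a direction. The 21 stem cell genes were 1.25, 1.03 and 1.01 times as high in cells with Slamf1 and 0.706, 0.862 and 0.845 times in cells with Cd48. With Cd84, both lists lay between 0.936 and 1.07 in every library. The 12 cell cycle genes lay between 0.930 and 0.941 times in cells with Cd84 and between 1.05 and 1.11 times in cells with Cd48.

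**Figure D5:**
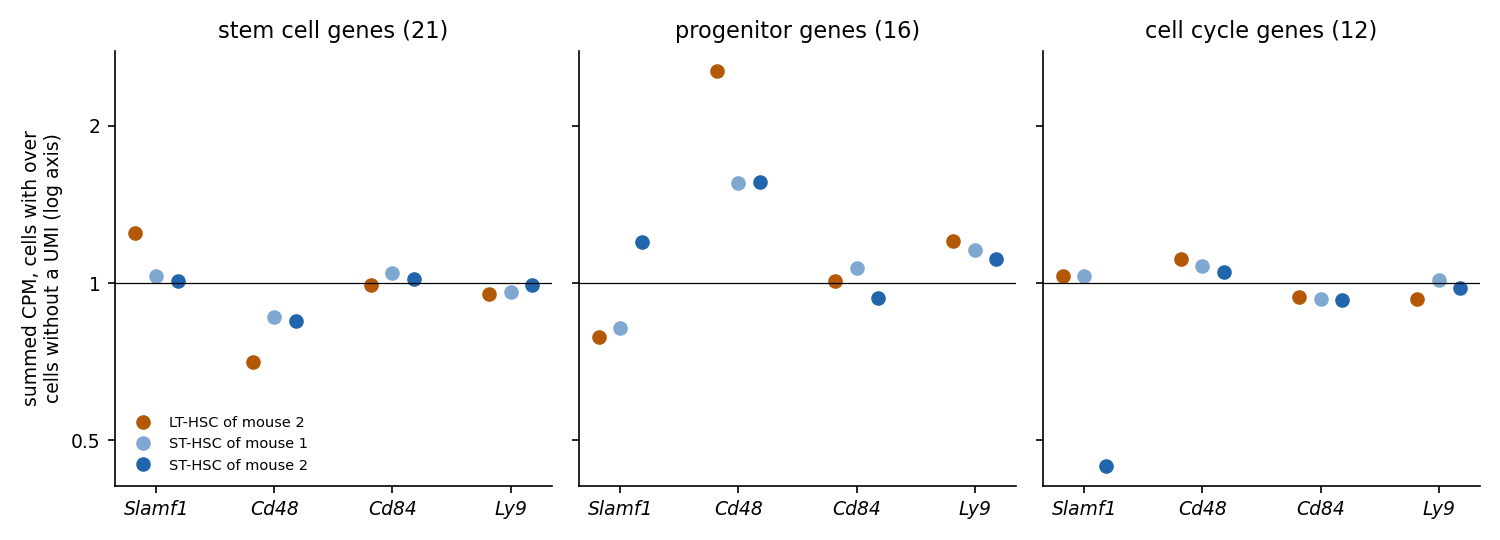
Summed CPM of 3 gene lists in cells with a UMI of each member over that in depth-matched cells without one, by library, on a log axis. Points are libraries, and the line at 1 marks equal levels. The progenitor genes stand highest in cells with Cd48, at 1.55 to 2.55 times, where single cells held part of the UMIs. The highest of these points (mouse 2 LT-HSC) rests on 247 against 96 UMIs. The low cell cycle point of Slamf1 (0.447, mouse 2 ST-HSC) rests on 67 against 150 UMIs.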

How the data were processed

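Libraries were made with the 10x Chromium 3' v3 kit, per the labels' protocols. The authors deposited UMI counts without normalization, from Cell Ranger 3.1.0 on mm10 per the submitters' processing notes, or software version 3.0.2 per the file headers. The sources used here do not say how barcodes were selected.

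Counts were summed per library over kept cells (or over cells with and without a UMI of a member) and tested with edgeR 4.0.16 (filterByExpr, TMM, quasi-likelihood F-test, Benjamini-Hochberg adjustment over all tested genes, threshold 0.05). SE is the log2 fold change over the square root of F. DESeq2 1.42.0 was the alternative. Thinning used a fixed seed. No doublet caller was run. Libraries with the same mouse number came from the same animal, per the labels. Named genes were the members, the SLAM, signalling and gate lists, up to 5 genes of smallest p per direction (mean of 20 CPM or more, same direction in all 3 libraries), and called members of the stem cell and progenitor lists; 2 genes that this rule names are not reported here. The members and lists were chosen with earlier results of these data known. The scripts were tested on simulated data. With 2 mice, p-values rest on few libraries and on a spread estimated across all genes, and are a weak measure of the spread between animals. Mouse 1 LT-HSC held no UMI of Cd48 or Ly9, so the spread of these genes between LT-HSC libraries was not measured. Intervals and floors cover counting error only.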

Additional observations from a re-analysis of the deposited data

Results flagged for a closer look

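The difference of Cd52 between cells with and without Cd48 UMIs differed between gates by an interaction term: the log2 fold change was larger in LT-HSC than in ST-HSC by 1.87 (SE 0.35, edgeR adjusted p = 0.0364), where the LT-HSC sum held 60 Cd52 UMIs, 48 of them in 1 cell. The same test gave 4.74 for Retnlg in cells with Cd84 UMIs (SE 0.50, edgeR adjusted p = 1.6e-06), with 288 of 289 UMIs in 1 LT-HSC cell. For Lyz2 in cells with Ly9 UMIs it gave -0.60 (SE 0.13, edgeR adjusted p = 0.0135). Of the Lyz2 UMIs in cells with Ly9, 1 cell held 382 of 1582 in mouse 1 ST-HSC and another 357 of 1229 in mouse 2 ST-HSC. Each test has 1 LT-HSC library. Slamf1 stood at 12.9 CPM (173 UMIs) in the barcodes of mouse 1 LT-HSC outside the cell filter, above the 0.825 and 1.40 CPM of kept cells in the ST-HSC libraries.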

How the results depend on the processing

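Each gate difference was fitted under 15 alternatives, some of them chosen after seeing the data. It kept its direction and side of the threshold in 14 for Slamf1 (3.95 to 4.91 over all), 13 for Cd48, 13 for Ly9 and 15 for Cd84 (0.06 to 0.21). The calls lost were those of DESeq2 for Cd48 (-2.92) and Ly9 (-1.72), and all 3 without mouse 2 LT-HSC, a fit that leaves 22 LT-HSC cells. Leaving out 1 library gave 3.95 to 4.91 for Slamf1, -10.7 to -2.56 for Cd48 and -10.8 to -1.31 for Ly9, where the lowest values rest on 0 UMIs. Leaving out 1 library gave -7.95 to 0.62 for Slamf8 and -0.26 to 0.058 for Ly6a (0.028 without mouse 2 ST-HSC). Kit was at -0.00053 with cells of 500 genes and 1000 UMIs. The mouse number as a block (replicate block) gave 4.14, -3.06, 0.13 and -1.60 for Slamf1, Cd48, Cd84 and Ly9 and changed no call of these 4, but Lck passed with it (-0.99). Between gates DESeq2 called 28 genes for LT-HSC and 24 for ST-HSC, the fit with all barcodes of the first library and the block (chosen after seeing the data) called 849 and 628, and leaving out 1 library gave 1 to 602 and 0 to 365.

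In the comparisons of cells with and without a UMI, counts are given as genes that rose and fell. DESeq2 called 0 and 0 for Slamf1, 32 and 0 for Cd48, 1 and 0 for Cd84, and 0 and 0 for Ly9. With no replicate block (library), the counts were 0 and 0 for Slamf1, 20 and 0 for Cd48, 0 and 0 for Cd84, and 0 and 0 for Ly9. Against all cells without a UMI they were 5 and 18 for Slamf1, 561 and 198 for Cd48, 4 and 9 for Cd84, and 148 and 55 for Ly9. Thinned to 4000 UMIs they were 159 and 43 for Cd48, 13 and 26 for Cd84, and 0 and 7 for Ly9; the Slamf1 fit was not run there, since only 1 library qualified. Without cells of another type they were 34 and 4 for Cd48 and 8 and 2 for Ly9. Without the myeloid progenitor gene cells too (chosen after seeing the data) they were 5 and 0 for Slamf1, 18 and 9 for Cd48, 2 and 2 for Cd84, and 4 and 1 for Ly9. Leaving out 1 library gave 0 to 14 and 0 to 4 for Slamf1, 27 to 187 and 1 to 58 for Cd48, 7 to 20 and 12 to 14 for Cd84, and 13 to 37 and 8 to 10 for Ly9. Mpo in cells with Cd84 was at -0.064 against all cells without a UMI, and between -0.96 and 3.07 with 1 library left out. Mpo in cells with Ly9 was at -0.41, -1.13, -0.31 and -0.090 against all cells, thinned, and without the first and both kinds of cells. Hist1h2ae with Ly9 was at 0.12 against all cells. The cause of these changes was not tested.

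The mouse 2 difference between gates in the share of cells with a UMI, in percentage points, was 3.02, -2.59, 1.74 and -2.48 for Slamf1, Cd48, Cd84 and Ly9 at 2000 UMIs, and 17.0, -7.11, 12.0 and -6.46 unthinned. At 4000 UMIs it was 6.46 for Slamf1 and -4.90 for Cd48. The AUC in mouse 2 was 0.585, 0.464, 0.571 and 0.468 unthinned, and 0.475 and 0.483 for Cd48 and Ly9 at 4000 UMIs. Cd84 in mouse 1 was at 0.427 unthinned, where the 22 cells are shallower. Depth limits mouse 1 LT-HSC, whose floor of 26.0 CPM lies above the other libraries' Cd48 and Ly9 levels.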
